A study of Homo sapiens with 8 samples.

Results

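The expression of 10 genes that mark or set the epithelial and the mesenchymal state was examined in RKO cells, a human line established from a colon carcinoma. The genes were a fixed list, taken by symbol from the 57992 genes of the count data. No rule on measured values chose them, but the list was made with earlier results of these data known. They comprise 3 epithelial genes (CDH1, EPCAM and ESRP1), 2 mesenchymal genes (CDH2 and VIM) and 5 transcription factors (ZEB1, ZEB2, SNAI1, SNAI2 and TWIST1). RNAseq was available from 8 libraries of RKO cells, 4 transfected with a control siRNA and 4 with an siRNA against A20, the ubiquitin-editing enzyme encoded by TNFAIP3. All 8 libraries came from cells stimulated with recombinant human wnt3a at 50 ng/mL for 24 h, so none shows the cells without wnt3a. Poly(A) RNA was sequenced as single reads. The data bear on 2 questions: which of the state genes RKO cells express, and whether their transcript levels differ between A20 siRNA and control siRNA.

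Epithelial cells adhere to their neighbours through E-cadherin, the product of CDH1, which is anchored to the actin cytoskeleton by the catenins. In epithelial-mesenchymal transition (EMT), factors of the ZEB, SNAI and TWIST families repress CDH1 and other epithelial genes, and cells gain vimentin filaments, N-cadherin and matrix proteins. ZEB factors and the miR-200 microRNAs repress each other, and the splicing regulators ESRP1 and ESRP2 maintain epithelial splice forms. In the colon the transition is known from the invasive edge of carcinomas, and wnt and TGF-beta signaling are among its inducers.

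The sequences below show the miR-200 microRNAs, because ZEB1 and ZEB2 differ from the other 8 genes in how many matches to them they carry. Mature miR-200 sequences from RefSeq (GRCh38.p14) are written 5′ to 3′ with the seed, bases 2 to 8, in capitals. Both seeds differ at a single base, and the family falls into the following groups, with the seed AAUACUG in the first 3 microRNAs and AACACUG in the last 2.
hsa-miR-200b-3p: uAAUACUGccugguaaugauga
hsa-miR-200c-3p: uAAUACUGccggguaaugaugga
hsa-miR-429: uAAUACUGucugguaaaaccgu
hsa-miR-200a-3p: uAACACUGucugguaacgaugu
hsa-miR-141-3p: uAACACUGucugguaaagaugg

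Their 7-letter matches, CAGTATT and CAGTGTT, were searched on the transcript strand in the 3′ UTR of each canonical transcript of GENCODE release 44. The letters of one match cannot overlap those of the other, and matches are a description of sequence and not of binding. ZEB1 held 9 matches in 2540 bases (6 CAGTATT and 3 CAGTGTT), or 3.54 per kb. ZEB2 held 9 in 5370 bases (5 and 4). ESRP1 held 2 and SNAI2 held 1, and the 3′ UTRs of CDH1, CDH2, EPCAM, VIM, SNAI1 and TWIST1 held neither letter string. Over all 19532 3′ UTRs the density was 0.252 per kb and 28.2% had at least 1 match. Among 3′ UTRs within 20% of the same length, 0.0415% of 2409 had at least as many matches as ZEB1. For ZEB2 the share was 0.171% of 1169, and both shares count the gene's own 3′ UTR. In ZEB1, 4 of the 9 matches are followed directly by an A, the form usually ranked strongest for microRNA targeting. These lie on the plus strand of GRCh38 and are printed 5′ to 3′ with the match in capitals.
ZEB1 3′ UTR, chr10:31527625-31527647: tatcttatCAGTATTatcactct
ZEB1 3′ UTR, chr10:31528499-31528521: ttacctatCAGTATTattttatt
ZEB1 3′ UTR, chr10:31528569-31528591: aaacctggCAGTATTaataccct
ZEB1 3′ UTR, chr10:31528789-31528811: tgatttaaCAGTGTTatgttaac

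The control siRNA libraries held between 23912317 and 30022486 reads on genes, the A20 siRNA libraries between 21226451 and 34194273. At this depth 3 reads, the limit that a count of 0 allows, correspond to 0.0877 to 0.141 CPM per library (counts scaled to the size of the library), counting error only. TNFAIP3 transcripts fell by 0.71 on the log2 scale with A20 siRNA (adjusted p = 0.00258 by the quasi-likelihood test of edgeR, Benjamini-Hochberg over all tested genes), and its groups did not overlap. Its level was 5.47 ± 0.388 CPM with control siRNA and 3.33 ± 0.215 CPM with A20 siRNA (SD, n = 4 each). The fall was thus partial. Of 12 colon epithelial markers, the keratins KRT8 and KRT18 and the intestinal factor CDX2 were expressed, 4 (KRT19, KRT20, CDX1 and CEACAM5) had no read in any library, and the other 5 had 1 to 3 reads in all. The summed level of the 12 was 123.0 to 133.1 CPM in the control libraries and 121.6 to 129.0 in the A20 siRNA libraries. The 9 fibroblast markers summed to at most 10 reads in any library and the 4 endothelial markers to at most 3, with DCN, LUM, COL3A1, FAP, CDH5 and KDR at 0 throughout. The 6 leukocyte markers summed to 0.90 to 1.70 CPM, most of it CD68, and PTPRC and CD3E were at 0. Replicates were numbered 1 to 4 in each group, and where they were not separate cultures the p-values measure technical spread only. In bulk RNA, fewer cells expressing a gene and less RNA per cell cannot be told apart.

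Of the 10 genes, 4 were expressed and 6 were at or close to 0 reads. ZEB1 was the most abundant, EPCAM, VIM and SNAI1 were expressed at moderate to low levels, and CDH1, CDH2, ZEB2 and TWIST1 had no read in any of the 8 libraries. Levels that compare genes are given as CPM per kb of exon, using the union of annotated exons, and ranked among the 13412 genes that passed edgeR's filter on low counts. The plot of per-library levels shows this division, with a wide empty range between the expressed genes and the near-absent ones.

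**Figure D1:**
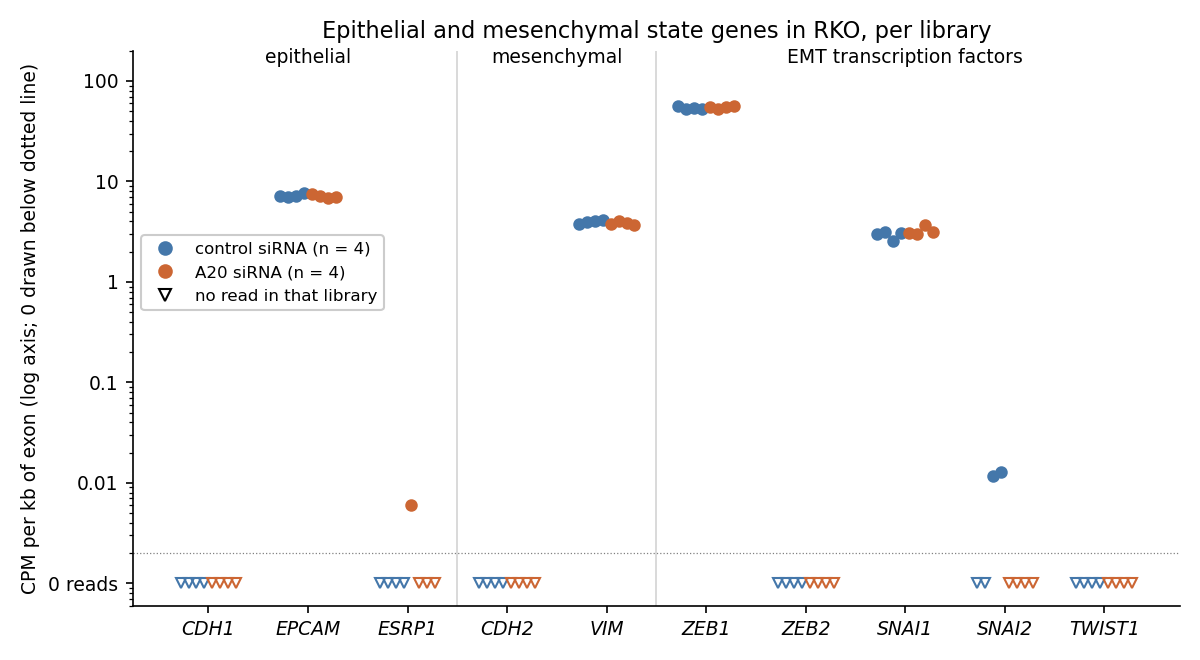
Level of each of the 10 genes in each library, in CPM per kb of exon on a log axis, for 4 control siRNA (blue) and 4 A20 siRNA (orange) libraries, with triangles for libraries without a read. ZEB1 lies between 52.8 and 56.9, EPCAM, VIM and SNAI1 lie between 2.53 and 7.69, and CDH1, CDH2, ZEB2 and TWIST1 are at 0 in all 8 libraries.

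Among the epithelial genes, CDH1 (ENSG00000039068.18, chromosome 16, 68737292 to 68835537, plus strand) had 0 reads in every library. EPCAM (ENSG00000119888.10, chromosome 2, 47345158 to 47387601, plus strand), an adhesion molecule of epithelial cells and of many carcinomas, was expressed with 358 to 619 reads per library. Its level was 7.18 ± 0.282 CPM per kb (SD, n = 8; range 6.79 to 7.69), above 58.6% of the tested genes. ESRP1 (ENSG00000104413.15, chromosome 8), the splicing regulator, had a single read, in A20 siRNA replicate 1. Its paralog ESRP2 was expressed, with 8896 reads over the 8 libraries and 8.04 ± 0.239 CPM per kb (SD, n = 8). Per base of canonical transcript the ratio of ESRP2 to ESRP1 was 9775, with a 95% counting interval of 1754 to 386154 that is wide because ESRP1 rests on 1 read. Epithelial genes thus differed among themselves, with EPCAM and ESRP2 present beside CDH1 and ESRP1 at or near 0.

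Of the mesenchymal genes, CDH2 (ENSG00000170558.8, chromosome 18, 27932879 to 28177946, minus strand), which encodes N-cadherin, had 0 reads in every library. RKO cells in these cultures therefore had detectable reads for neither of the classical cadherins that EMT exchanges. VIM (ENSG00000026025.14, chromosome 10, 17228241 to 17237593, plus strand), encoding the intermediate filament vimentin, was expressed at 3.91 ± 0.168 CPM per kb (SD, n = 8; range 3.68 to 4.17), above 44.01% of the tested genes. Exons of 2 other annotated genes, VIM-AS1 and ENSG00000234961, cover 983 of the 2154 bases (45.6%) of the canonical VIM transcript. The strand setting of the counting is not given in the sources used here, and reads in that stretch may have been assigned to neither gene. The order of EPCAM and VIM depended on the length used. Over canonical transcripts EPCAM was higher (11.3, range 10.7 to 12.1, against 9.40, range 8.84 to 10.0, CPM per kb), while over the canonical bases that no other gene shares VIM was higher (17.3, range 16.3 to 18.4). Both of these lengths were chosen after seeing the data.

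The cadherin family was listed after these zeros had been seen. Of 23 genes named CDH and a number, 12 had no read in any library and 20 had fewer than 25 reads in total. Only CDH24 and CDH20 passed the filter. CDH24, a type II cadherin, stood at 5.14 ± 0.269 CPM per kb (SD, n = 8), and per base of canonical transcript it was at least 195-fold higher than CDH1 and at least 163-fold higher than CDH2 in each library, taking 3 reads as the limit for each zero. With control siRNA its level was 19.0 ± 1.16 CPM and with A20 siRNA 19.6 ± 0.893 CPM (SD, n = 4 each). The log2 fold change was 0.04 (SE 0.05, adjusted p = 0.757).

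Of the EMT factors, ZEB1 and SNAI1 were expressed, whereas ZEB2, SNAI2 and TWIST1 were at or near 0 reads. ZEB1 (ENSG00000148516.21, chromosome 10, 31318495 to 31529814, plus strand), a zinc finger and homeodomain repressor of CDH1, was covered by 10295 to 16248 reads per library. Its level of 54.4 ± 1.56 CPM per kb (SD, n = 8; range 52.8 to 56.9) was above 94.5% of the tested genes. ZEB2 (ENSG00000169554.17, chromosome 2, 144364364 to 144521057, minus strand) had 0 reads in every library, so ZEB1 was at least 5355-fold higher per base of canonical transcript in each of them. SNAI1 (ENSG00000124216.3, chromosome 20, 49982980 to 49988886, plus strand), which encodes the short-lived repressor Snail, was low, at 3.08 ± 0.311 CPM per kb (SD, n = 8; range 2.53 to 3.67) and 112 to 179 reads per library. SNAI2 (ENSG00000019549.8, chromosome 8), encoding Slug, had 1 read in control siRNA replicate 3 and 1 in control siRNA replicate 4. Against these 2 reads SNAI1 had 1114, a ratio per base of canonical transcript of 712 (95% counting interval 197 to 5888). TWIST1 (ENSG00000122691.12, chromosome 7, 19020991 to 19117636, minus strand), a basic helix-loop-helix factor, had 0 reads in every library.

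ZEB1 was the highest of the 10 genes with every length used, and its lowest library (52.8 CPM per kb of exon) lay far above the highest EPCAM library (7.69). Neighbours in the order ZEB1, EPCAM, VIM, SNAI1 did not overlap over the 8 libraries on the exon-union scale, but VIM and SNAI1 nearly touched, at 3.68 for the lowest VIM library and 3.67 for the highest SNAI1 library. Within a library the ratio of ZEB1 to EPCAM was 6.87 to 8.10 on that scale, and ZEB1 to SNAI1 was 14.96 to 21.1.

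None of the 4 expressed genes differed between A20 siRNA and control siRNA beyond the spread between replicates. Over all genes tested, 1.25% were called at an adjusted p under 0.05, 0.634% higher and 0.611% lower. Of the 4 genes that could be tested 0 were called, and 0 had an unadjusted p under 0.05, which 16.2% of all tested genes had. With so low a share called over all genes, 0 of 4 is close to the background and is no sign of particular stability. The remaining 6 of the 10 genes did not pass the filter and were not tested.

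EPCAM stood at 17.4, 17.2, 17.6 and 18.7 CPM in control siRNA replicates 1 to 4 and at 18.0, 17.3, 16.5 and 16.8 CPM in A20 siRNA replicates 1 to 4. The groups overlapped, with 2 A20 siRNA libraries within the control range and 2 below it. Means were 17.7 ± 0.669 and 17.2 ± 0.670 CPM (SD, n = 4 each), and the log2 fold change was -0.04 (SE 0.05, 95% interval -0.14 to 0.06, adjusted p = 0.760).

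VIM stood at 19.5, 20.6, 20.7 and 21.6 CPM with control siRNA and at 19.7, 21.1, 19.8 and 19.0 CPM with A20 siRNA. Here 3 A20 siRNA libraries were within the control range and replicate 4 was below it. The means of 20.6 ± 0.865 and 19.9 ± 0.839 CPM (SD, n = 4 each) gave a log2 fold change of -0.04 (SE 0.05, 95% interval -0.14 to 0.06, adjusted p = 0.712).

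ZEB1 stood at 492.5, 457.3, 462.8 and 456.8 CPM with control siRNA and at 473.8, 458.4, 475.6 and 484.0 CPM with A20 siRNA. All 4 A20 siRNA libraries lay within the control range, whose upper end was set by control replicate 1 alone. The log2 fold change between the means of 467.3 ± 17.0 and 472.9 ± 10.7 CPM (SD, n = 4 each) was 0.02 (SE 0.03, 95% interval -0.04 to 0.07, adjusted p = 0.803). Without control replicate 1 it was 0.04 (adjusted p = 0.288), also past no threshold.

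SNAI1 stood at 5.09, 5.32, 4.32 and 5.29 CPM with control siRNA and at 5.22, 5.08, 6.27 and 5.36 CPM with A20 siRNA. Control replicate 3 was the lowest library and A20 siRNA replicate 3 the highest, and the other 6 lay close together. Means were 5.005 ± 0.468 and 5.48 ± 0.534 CPM (SD, n = 4 each), which gave a log2 difference of 0.13 (SE 0.09, 95% interval -0.07 to 0.32, adjusted p = 0.551). Its interval was the widest of the 4, and its read counts were the lowest. Without A20 siRNA replicate 3 the log2 fold change was 0.06.

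**Figure D2:**
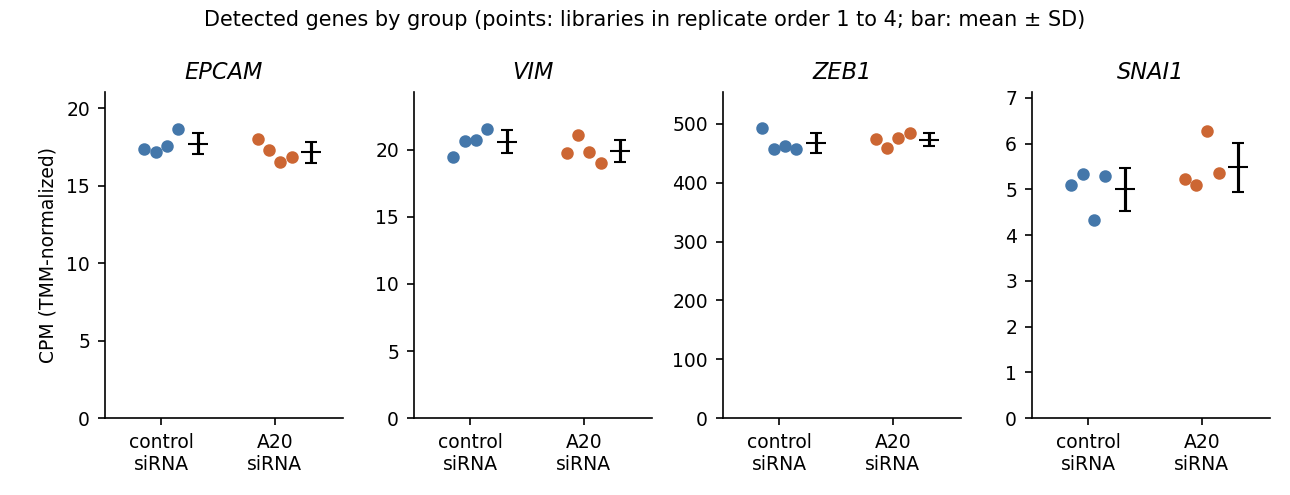
CPM of EPCAM, VIM, ZEB1 and SNAI1 in 4 control siRNA and 4 A20 siRNA libraries, each on its own axis from 0, with the mean and SD as bars beside the points. In every panel the groups overlap, and ZEB1 in control siRNA replicate 1 (492.5 CPM) stands above the other control libraries (456.8 to 462.8 CPM).

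The 8 libraries also show how the 4 genes varied together, whatever the siRNA. Over 6 pairs of genes, log2 CPM of VIM and ZEB1 were inversely related, with Pearson's r = -0.91 (exact permutation p = 0.00528, adjusted p = 0.0317, n = 8) and Spearman's rho = -0.88 (exact permutation p = 0.00724, adjusted p = 0.0435, n = 8). Without the 2 libraries farthest from the median of VIM, r was -0.92. Libraries differed in how deviations of all genes followed exonic length, with Spearman's rho from -0.200 in control replicate 4 to 0.178 in A20 siRNA replicate 4, and ZEB1 (8650 exonic bases) is longer than VIM (5176). After a correction of each library for that trend r was -0.82 and the exact permutation p adjusted over the 6 pairs was 0.0644, so the relation no longer passed. With 4 libraries in each group no value within a group was computed. For the other 5 pairs r ranged from -0.43 to 0.55 and the smallest exact permutation p adjusted over the pairs was 0.473 for Pearson's r and 0.397 for Spearman's rho (EPCAM and SNAI1, rho = -0.60).

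Genes with profiles over the 8 libraries most like those of EPCAM and VIM, the epithelial and the mesenchymal gene of highest level, were sought among the other 13411 tested genes by Pearson's r of log2 CPM. For EPCAM these were ALG1 (r = 0.97), CCNH (0.93) and ENSG00000272070 (0.92), and 17 genes exceeded 0.9. For VIM they were UCK1 (0.97), RANBP1 (0.97) and IL13RA2 (0.96), and 86 genes exceeded 0.9. The 8 libraries differ in depth and in a length trend that runs over all genes, and the values are descriptions only.

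The wider set of epithelial and mesenchymal genes was read from 9 related lists. No gene of any list was called, where 1.25% of all 13412 tested genes were called. With so low a share, 0 calls in a list is close to the background. In the 8 lists with tested genes the median log2 fold change lay between -0.04 and 0.03, beside 0.00 over all tested genes. Among 43 epithelial adhesion and keratin genes, 25 were tested and 5 had no read, KRT19, KRT20, RAB25 and PRSS8 among them. The highest per kb were CTNNB1 and CTNNA1, whose products, beta- and alpha-catenin, couple cadherins to actin, and beta-catenin also carries the wnt signal. CTNNB1 stood at 565.5 ± 6.77 CPM with control siRNA and 553.3 ± 4.84 CPM with A20 siRNA (log2 fold change -0.03, adjusted p = 0.468), and CTNNA1 at 409.8 ± 5.18 and 412.7 ± 6.60 CPM (SD, n = 4 each). Both transcripts were thus abundant in cells without a read of CDH1 or CDH2. JUP, the gamma-catenin gene, named after its values were seen, had 5 reads over the 8 libraries. KRT18, a simple-epithelial keratin with many processed gene copies that unique mapping can lose reads to, stood at 97.6 ± 4.25 and 94.7 ± 3.24 CPM (SD, n = 4 each).

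Epithelial transcription factors were sparse, with 6 of 17 tested and 7 without a read, among them GRHL2, EHF, HNF4A and CDX1. The highest was CDX2, which specifies intestinal identity, at 16.9 ± 0.798 CPM with control siRNA and 17.0 ± 1.02 CPM with A20 siRNA (SD, n = 4 each). FOXA1, a pioneer factor, had 11.1 ± 0.709 and 11.1 ± 1.62 CPM, and OVOL2, a repressor of ZEB1, had 2.27 ± 0.199 and 2.30 ± 0.255 CPM (SD, n = 4 each). All 3 overlapped between the groups, and OVOL2 was low beside ZEB1. KLF5, named after its values were seen, stood at 3.93 ± 0.379 CPM with control siRNA and 3.14 ± 0.211 CPM with A20 siRNA (SD, n = 4 each). The KLF5 groups did not overlap, which held for 7.61% of all tested genes. Its log2 fold change of -0.33 (SE 0.11) had an adjusted p of 0.124 and did not pass. Of 6 miR-200 loci, MIR200CHG, MIR200C and MIR141 had no read, and MIR200A, MIR200B and MIR429 had 5, 1 and 12 reads over the 8 libraries. Poly(A) libraries do not measure the mature microRNAs printed above, so these counts concern the loci's longer transcripts only.

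Levels of the mesenchymal matrix genes spread over a wide range, and 13 of 31 were tested. TIMP1, an inhibitor of matrix metalloproteinases, was at 264.2 CPM per kb, whereas 7 genes, among them SPARC, COL3A1, MMP2, DCN and LUM, had no read. CCN1, a matricellular protein, stood at 83.5 ± 3.295 CPM with control siRNA and 81.4 ± 2.62 CPM with A20 siRNA (SD, n = 4 each). FN1, the fibronectin gene, chosen here after its values were seen, was near the bottom of the tested genes at 0.0628 CPM per kb. It stood at 0.871 ± 0.0742 CPM with control siRNA and 1.29 ± 0.170 CPM with A20 siRNA (SD, n = 4 each). The log2 difference of 0.58 (SE 0.18, adjusted p = 0.103) did not pass.

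The list genes nearest the threshold were TIMP1 and, in the cytoskeleton and surface list, LGALS1, the galectin-1 gene, and TPM2, a tropomyosin gene named after its values were seen. TIMP1 stood at 386.7, 403.9, 382.2 and 410.0 CPM with control siRNA and 376.8, 374.4, 361.9 and 360.6 CPM with A20 siRNA, with every A20 siRNA library below every control library. Groups failed to overlap in either direction for 7.61% of all tested genes. The log2 fold change was -0.10 (SE 0.03, adjusted p = 0.0534). LGALS1 stood at 306.0, 318.8, 312.8 and 342.5 CPM with control siRNA and 307.6, 297.5, 278.0 and 274.4 CPM with A20 siRNA, with replicate 1 of A20 siRNA inside the control range. Its log2 fold change was -0.14 (SE 0.04, adjusted p = 0.0520). TPM2 went the other way, at 4.22, 3.29, 3.43 and 3.55 CPM with control siRNA and 5.22, 4.76, 4.75 and 4.28 CPM with A20 siRNA, with every A20 siRNA library above every control library. The log2 fold change was 0.40 (SE 0.10, adjusted p = 0.0595). None of the 3 passed in the fit reported here. TPM2 passed under 5 other settings, and TIMP1 and LGALS1 passed under some and not under others, with adjusted p from 0.00835 to 0.194 for TPM2, from 0.0015 to 0.197 for TIMP1 and from 1.36e-06 to 0.197 for LGALS1. After correction of each library for the trend with exonic length, the log2 fold change of TIMP1 was -0.07 (adjusted p = 0.112). That of LGALS1 was then -0.11 (adjusted p = 0.0480) and that of TPM2 0.41 (adjusted p = 0.0483).

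The other highest genes of the cytoskeleton and surface list were AXL, a receptor tyrosine kinase, and ITGB1, the beta-1 integrin, and 17 of its 26 genes were tested. AXL stood at 825.1 ± 12.0 CPM with control siRNA and 806.9 ± 14.8 CPM with A20 siRNA, and ITGB1 at 2224 ± 30.8 and 2213 ± 49.7 CPM (SD, n = 4 each). Per kb of exon LGALS1 (285.6), AXL (158.9) and ITGB1 (152.4) were all far above VIM (3.91). CDH11, FAP and NNMT had no read. VIM was thus below LGALS1, AXL and ITGB1 of this list, also at its 17.3 CPM per kb over canonical bases that no other gene shares. Being listed does not show that a gene is particular to mesenchymal cells.

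Of 24 other EMT transcription factors, 13 were tested and 8 had no read, TWIST2, PRRX1, FOXC2 and GSC among them. The highest were HMGA1, an architectural chromatin protein, YBX1, a cold-shock domain protein, and FOSL1, an AP-1 subunit, at 777.1, 386.9 and 158.8 CPM per kb. HMGA1 and YBX1 have processed copies, so their levels are less certain. The 15 genes of SNAI and ZEB corepressors and SNAI1 turnover were all tested. HDAC1, a histone deacetylase, stood at 212.8 ± 4.01 CPM with control siRNA and 209.7 ± 3.47 CPM with A20 siRNA, RCOR1, of the CoREST complex, at 128.9 ± 0.761 and 131.1 ± 2.87 CPM, and CSNK1A1, casein kinase 1 alpha, at 211.7 ± 1.88 and 203.3 ± 3.31 CPM (SD, n = 4 each). The CSNK1A1 groups did not overlap, which held for 7.61% of all tested genes and for 2 of the 15 genes of this list. Its log2 fold change of -0.06 had an adjusted p of 0.188.

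In the TGF-beta and BMP list 21 of 25 genes were tested, and TGFB2 and BMP7 had no read. TGFB1, the ligand, stood at 153.0 ± 3.05 CPM with control siRNA and 150.2 ± 3.14 CPM with A20 siRNA, SMAD5, a signal transducer of BMP receptors, at 168.9 ± 3.60 and 169.2 ± 2.90 CPM, and SKI, a SMAD corepressor, at 116.2 ± 3.84 and 117.6 ± 6.03 CPM (SD, n = 4 each). Of 11 EMT splicing factors 9 were tested. HNRNPM, which favours mesenchymal splice forms and competes with ESRP1, was the highest at 107.1 CPM per kb, followed by PTBP1 (88.2) and SRSF1 (83.6). ESRP2, named after its values were seen, stood at 41.4 ± 1.25 CPM with control siRNA and 42.1 ± 1.28 CPM with A20 siRNA (SD, n = 4 each). Its log2 difference was 0.03 (SE 0.03, adjusted p = 0.768).

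**Figure D3:**
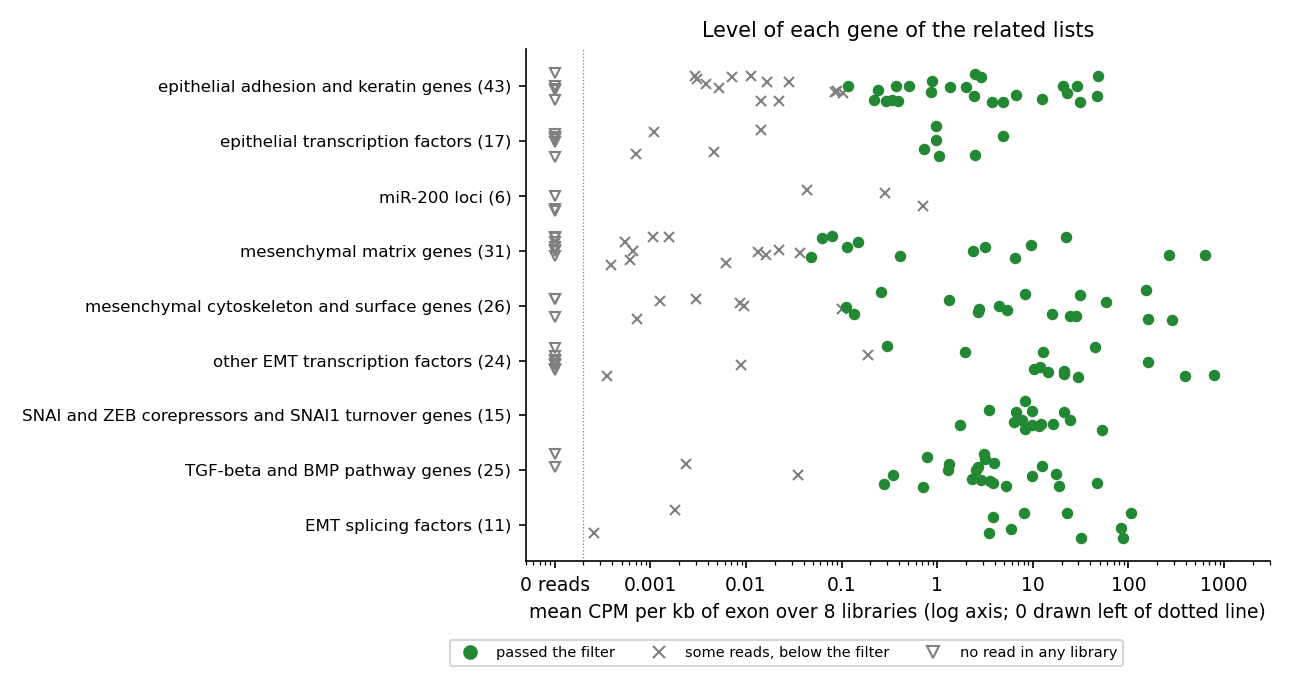
Mean level over 8 libraries of each gene of the 9 related lists, in CPM per kb of exon on a log axis, with filled points for genes that passed the filter, crosses for those with some reads below it and triangles for genes without a read. Each list except the corepressor and splicing lists holds genes at 0 beside genes with reads, and the highest is HMGA1 (777.1).

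**Figure D4:**
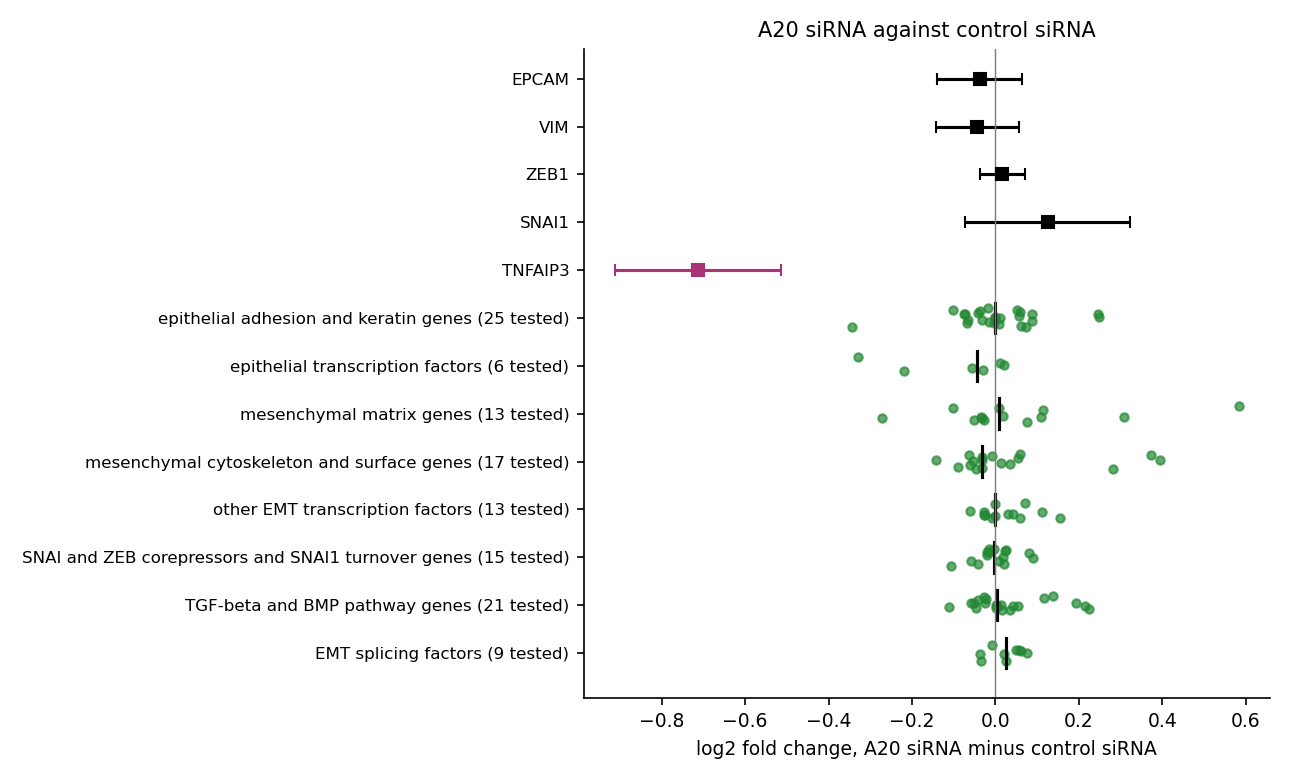
Log2 fold change, A20 siRNA minus control siRNA, with 95% intervals for EPCAM, VIM, ZEB1, SNAI1 and TNFAIP3, and single tested genes as points with the median as a bar for each related list. The intervals of EPCAM, VIM, ZEB1 and SNAI1 include 0, TNFAIP3 is at -0.71, and the list medians lie between -0.04 and 0.03.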

How the data were processed

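RNAseq counts of 8 RKO libraries, 4 with control siRNA and 4 with A20 siRNA, were analysed, and groups and replicate numbers came from the sample labels. The authors trimmed reads with Trimmomatic, mapped them to GRCh38.p7 with STAR and deposited raw counts of uniquely mapping reads per gene of a GENCODE annotation. Its release and the strand setting are not given in the sources used here. The number of columns of values not used was 0.

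GENCODE release 44 (GRCh38) gave symbols, coordinates, exons and 3′ UTRs, by identifier without version (56948 of 57992 genes). Counts were filtered with filterByExpr at a minimum count of 10, normalized by TMM and fitted by the quasi-likelihood test of edgeR 4.0.16 (R 4.3.3) on all 13412 remaining genes, without covariates. Adjusted p refers to Benjamini-Hochberg over all of them with a threshold of 0.05, and SE was derived from the log2 fold change and F. The biological coefficient of variation was 2.73%. All replicate pairs differed by more than sampling noise, which does not show that they were separate cultures. The procedure was tested on simulated data.

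The 10 genes, the 9 related and 4 marker lists and the rules were chosen with earlier results of these data known. Named by rule were the 10 genes, TNFAIP3, in each list any called gene and the 3 of highest level per kb, and the 3 genes most correlated with EPCAM and with VIM. Some genes of the lists are not reported here. ESRP2, FN1, TPM2, KLF5, JUP, the cadherins and genes named as having no read were added after their values were seen. Alternatives were RLE size factors, no filter, at least 10 counts in every library, the replicate block, a loess length correction (span 0.5), both together, DESeq2 1.42.0, limma-voom (limma 3.58.1) and each library left out. Counting intervals and limits of 3 reads cover counting error only.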

Additional observations from a re-analysis of the deposited data

Results flagged for a closer look

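In 66 groups of 4 libraries the highest or lowest value was compared with the others, as its gap to the nearest one divided by the range of the group, and 5 groups exceeded Dixon's 95% limit, where chance gives about 1 in 20 (3.3 groups). Among the 10 state genes the only one was ZEB1, for which control siRNA replicate 1 stood at 492.5 CPM beside 456.8 to 462.8 in the other control libraries (gap over range 0.833). TNFAIP3 was lowest in A20 siRNA replicate 2, at 3.01 CPM beside 3.40 to 3.47 (0.847). CTNNB1 was highest in A20 siRNA replicate 2, at 560.6 CPM beside 550.6 to 551.1 (0.947). CDX2 was highest in control siRNA replicate 3, at 18.1 CPM beside 16.4 to 16.7 (0.8294), and PTBP1 was lowest in control siRNA replicate 1, at 656.7 CPM beside 666.5 to 668.4 (0.836). Control siRNA replicate 1 and A20 siRNA replicate 2 thus each held 2 of the 5 values.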

How the results depend on the processing

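EPCAM, VIM, ZEB1 and SNAI1 kept their direction and were called under none of the alternatives that gave an adjusted p. Their log2 fold changes ranged from -0.07 to -0.01, from -0.07 to -0.02, from 9e-05 to 0.04 and from 0.06 to 0.16. DESeq2 gave no adjusted p for TNFAIP3, SNAI1, OVOL2, TPM2 and FN1. TNFAIP3 remained lower, from -0.77 to -0.67. The 6 genes at or near 0 reads cannot be tested at this depth, and SNAI1, with 112 to 179 reads per library, is the least precise of those tested.

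Over all genes, 85 were higher and 82 lower with A20 siRNA. Without the low-count filter 314 were higher and 310 lower, with the replicate block 262 higher and 212 lower, and with block plus length correction 222 higher and 230 lower. With 1 library left out they ranged from 6 (without A20 siRNA replicate 3) to 567 higher and from 6 to 430 lower (both without control siRNA replicate 1). Same-numbered libraries correlated by -0.01 to 0.084 in their deviations from the group means. The labels give no pairing beyond the shared number, and whether same-numbered libraries share a batch was not tested.

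Of the related lists, all at 0 calls, the matrix list had 1 call (TIMP1) without the filter, with the replicate block, with DESeq2 and with limma-voom. The cytoskeleton and surface list had 1 (LGALS1) with RLE and DESeq2, and 2 (LGALS1 and TPM2) without the filter, with the replicate block, with the length correction and with both. With 1 library left out the calls were 0 to 1 for the matrix list, 0 to 3 for the cytoskeleton and surface list, and 0 to 1 for the other EMT factors, the corepressors and the TGF-beta list. The highest of each came without control siRNA replicate 1, when TEAD1, EZH2 and TGFB3 were also called. Over all genes 567 were then higher and 430 lower, beside 85 and 82 in the main fit. The replicate block and the fit without the filter also called more genes over all, as given above. More calls in the lists are therefore no result about the lists. The cause was not tested.

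Reversals were limited to genes near 0. With the length correction and with the block and length correction, CTNNA1 was -0.00768 and -0.00735, HMGA1 0.0252 and 0.0252, YBX1 0.00425 and 0.00425, FOSL1 0.00438 and 0.00416, and SMAD5 -0.0151 and -0.0147. SMAD5 was also -0.00172 without the filter. With 1 library left out, CTNNA1 ranged from -0.000587 to 0.0152, CDX2 from -0.0204 to 0.0423, FOXA1 from -0.0985 to 0.0325, OVOL2 from -0.0398 to 0.0782, ITGB1 from -0.0194 to 0.00289, HMGA1 from -0.0142 to 0.0136, YBX1 from -0.0292 to 0.00137, SMAD5 from -0.00950 to 0.0148 and SKI from -0.00967 to 0.0396.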
